A study of Zea mays with 7 samples.

Results

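The genes described here encode subunits of the maize heterotrimeric G protein: *CT2* (*GRMZM2G064732*), the Gα gene, *ZmGB1* (*GRMZM2G045314*), the Gβ gene, and 3 extra-large G protein (XLG) genes, *GRMZM2G127739*, *GRMZM2G016858* and *GRMZM2G429113*. They were chosen by gene identifier, and all 5 were found among the 110451 genes of the count table. The table of gene names used here lists *CT2* and *GB1* under these identifiers, and does not name the XLG genes. The XLG genes were given as *ZmXLG1*, *ZmXLG3a* and *ZmXLG3b*, but no source used here pairs these names with the identifiers, so they are called by their identifiers.

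Ear primordia of 3–4 mm were sequenced as 4 *Bif3/Bif3* pools and 3 wild-type pools, each made from 3 ears. Both genotypes were field-grown siblings in the B73 background, backcrossed from a mutant of another origin. The mutant carries a tandem duplication that adds a second copy of *ZmWUS1*, the maize *WUSCHEL* gene, behind a rearranged promoter. The sample labels give no zygosity for the mutant, so that the homozygous genotype comes from the study's methods, and all *Bif3* material descends from a single allele.

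A heterotrimeric G protein is a switch at the plasma membrane. Gα binds GTP or GDP, and Gβ and Gγ form a dimer that is held by Gα and released when the switch is on. Plants also have XLG proteins, in which a Gα-like part follows a long N-terminal extension, and which can pair with the same Gβγ dimer. In maize meristems, CT2 acts in CLAVATA signaling, where it passes on a signal from receptors such as FEA2 that restricts the stem cell niche, and *ct2* mutants have enlarged, fasciated ears. The question of the comparison is whether the transcripts of these signaling components differ in ears in which *ZmWUS1* is overexpressed.

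None of the 5 G protein genes was differentially expressed in *Bif3/Bif3* ears. *CT2* and *GRMZM2G127739* had the lowest values relative to wild-type, with 0.83-fold and 0.85-fold, *ZmGB1* was at 0.95-fold, and *GRMZM2G016858* and *GRMZM2G429113* were at 1.03-fold and 1.12-fold. A gene was called differentially expressed when it changed by more than 1.5-fold, with p under 0.05 and an adjusted p under 0.1 after Benjamini-Hochberg adjustment, in the quasi-likelihood test of edgeR on the 40650 genes with at least 2 counts. Of these genes 3.99% were past this threshold, 3.39% higher and 0.598% lower in *Bif3/Bif3*. Of the 14132 genes with a mean of at least 10 CPM, a level all members exceeded, 3.21% were past it. At an unadjusted p under 0.05, 2 of the 5 members passed in edgeR, *CT2* and *GRMZM2G127739*, where 25.8% of those 14132 genes did, while DESeq2 had 1 member at such a p, *CT2*, and 0 past the threshold. The 95% interval of the fitted change lay inside 1.5-fold in either direction for 5 of the 5 members. Each interval is for 1 gene and was not widened for the number of genes.

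All members were read deeply. Their counts ran from 1886 to 8182 per pool, out of total counts of 41720131 to 56057512 per pool, so that counting error alone, given as a coefficient of variation, was between 1.21% and 2.04%. It covers counting only, since reads are not independent molecules. Levels are given in CPM, the count relative to the library size after scaling by the TMM method. Without transcript lengths, CPM values compare pools within a gene but not the levels of different genes.

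**Figure D1:**
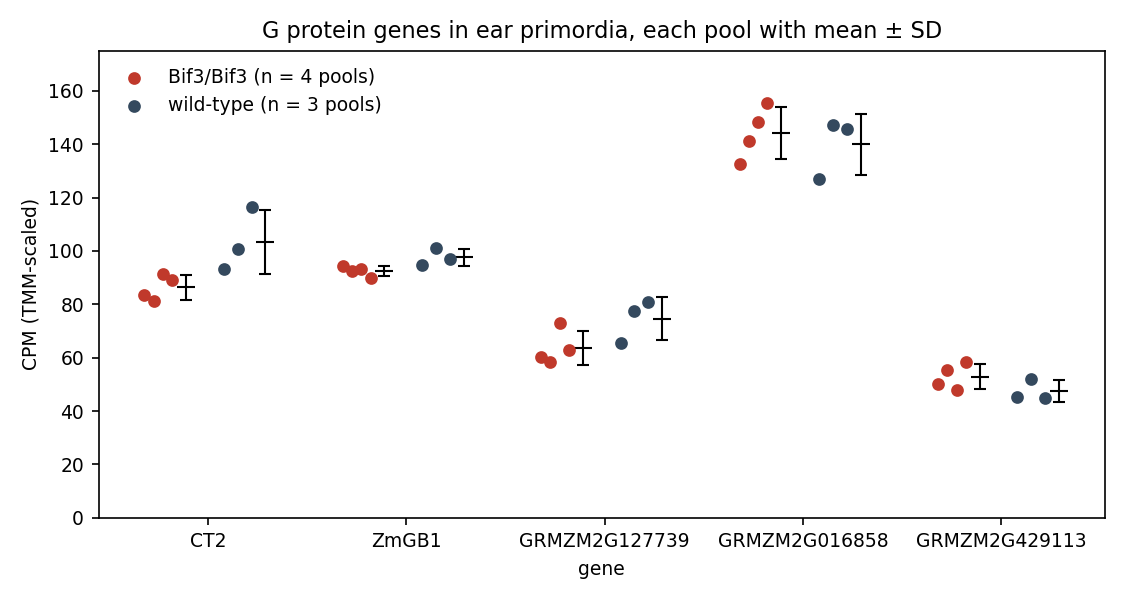
TMM-scaled CPM of the 5 G protein genes in each pool of *Bif3/Bif3* (red, n = 4) and wild-type (dark, n = 3), with the mean and SD beside the points. The genotypes are apart in *CT2* and, by a narrow gap, in *ZmGB1*, and overlap in the XLG genes.

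For *CT2*, the gene mutated in *compact plant2*, the *Bif3/Bif3* pools gave 83.6, 81.3, 91.4 and 89.2 CPM, against 93.1, 101 and 117 CPM in the wild-type pools. The genotypes did not overlap, and the gap between the nearest pools was small next to the spread of wild-type, in which replicate 3 was the highest. *Bif3/Bif3* averaged 86.4 ± 4.69 CPM (SD, n = 4), against a wild-type mean of 104 ± 12.0 CPM (SD, n = 3), a difference of -16.6%. The fitted log2 fold change was -0.26 (standard error 0.089, 95% interval -0.46 to -0.07, adjusted p = 0.143 from edgeR). At the lower end of the interval *CT2* would be reduced 1.37-fold. A two-sided exact permutation test on mean CPM gave p = 0.0286, the smallest that 4 pools against 3 allow, unadjusted and 1 of 5 such tests.

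A separation of this kind was common among genes with a mean of at least 10 CPM. Of the 14132 genes named above, 15.7% had all *Bif3/Bif3* pools below all wild-type pools and 7.83% had them all above. Of the same genes 81.9% had a smaller absolute log2 fold change than *CT2*. The lower value of *CT2* was largest when wild-type replicate 1 was left out (log2 fold change -0.33, adjusted p = 0.0857 from edgeR) and smallest when wild-type replicate 3 was left out (-0.17 and 0.466). Its adjusted p was also under 0.1 with DESeq2, at 0.0874. In none of these fits did *CT2* reach 1.5-fold.

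*ZmGB1*, which encodes the Gβ subunit that Gα and the XLG proteins share, varied least of the 5 on the TMM scale. Its *Bif3/Bif3* pools gave 94.3, 92.3, 93.4 and 90.0 CPM, against 94.7, 101 and 96.8 CPM in wild-type. The genotypes did not overlap, but the highest *Bif3/Bif3* pool and the lowest wild-type pool were almost level. With library size alone as the scaling they did overlap, with 97.8 CPM in *Bif3/Bif3* replicate 1 and 94.8 CPM in wild-type replicate 1, whereas *CT2* stayed apart. The coefficient of variation was 1.99% over the *Bif3/Bif3* pools and 3.32% over the wild-type pools. In *Bif3/Bif3*, 2.34% of the genes with a mean of at least 10 CPM varied less between pools, and in wild-type 13.9% did. With library size alone the coefficient of variation of *ZmGB1* was 4.39% in *Bif3/Bif3*, above the 3.93% of *CT2*, so its place as the steadiest gene of the mutant pools rested on the scaling. The log2 fold change was -0.08 (standard error 0.068, 95% interval -0.23 to 0.07, adjusted p = 0.582 from edgeR), and the exact permutation test gave p = 0.0286. *CT2* and *ZmGB1* are thus 2 of the 5 members without overlap on the TMM scale, and both were lower, as were 15.7% of the genes with a mean of at least 10 CPM.

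The XLG gene *GRMZM2G127739* gave 60.4, 58.2, 72.98 and 63.0 CPM in *Bif3/Bif3*, against 65.6, 77.5 and 80.7 CPM in wild-type. Replicate 3 of *Bif3/Bif3* was above the lowest wild-type pool, so the genotypes overlapped. The log2 fold change was -0.23 (standard error 0.099, 95% interval -0.45 to -0.01, adjusted p = 0.252 from edgeR). The exact permutation test gave p = 0.114. *GRMZM2G127739* and *CT2* had like profiles over the 7 pools, with a root mean square distance of 0.069 between their log2(CPM + 1) values, each centred on its own mean. The median distance of *CT2* to the genes with a mean of at least 10 CPM was 0.175, and 382 of these genes were closer to *CT2* than *GRMZM2G127739* was.

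The other two XLG genes had fitted values above wild-type, neither past the threshold. In *GRMZM2G016858* the *Bif3/Bif3* pools had 132, 141, 148 and 155 CPM, against 127, 147 and 146 CPM in wild-type. Its genotypes overlapped widely, and the log2 fold change of 0.04 was smaller than its standard error of 0.086 (95% interval -0.14 to 0.23, adjusted p = 0.836 from edgeR). Even its direction rested on 1 pool, since the log2 fold change was -0.02 when wild-type replicate 1 was left out.

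*GRMZM2G429113* was at 50.2, 55.3, 47.8 and 58.4 CPM in *Bif3/Bif3*, against 45.2, 52.1 and 45.1 CPM in wild-type. Wild-type replicate 2 was above 2 of the *Bif3/Bif3* pools. The log2 fold change was 0.16 (standard error 0.092, 95% interval -0.04 to 0.36, adjusted p = 0.406 from edgeR), the highest of the 5 members, and it stayed between 0.11 and 0.23 with any 1 pool left out. In the exact permutation tests *GRMZM2G016858* gave p = 0.600 and *GRMZM2G429113* p = 0.171. How reads that match more than 1 XLG gene were counted is not stated in the sources used here, so part of their counts may be lost or shared.

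**Figure D2:**
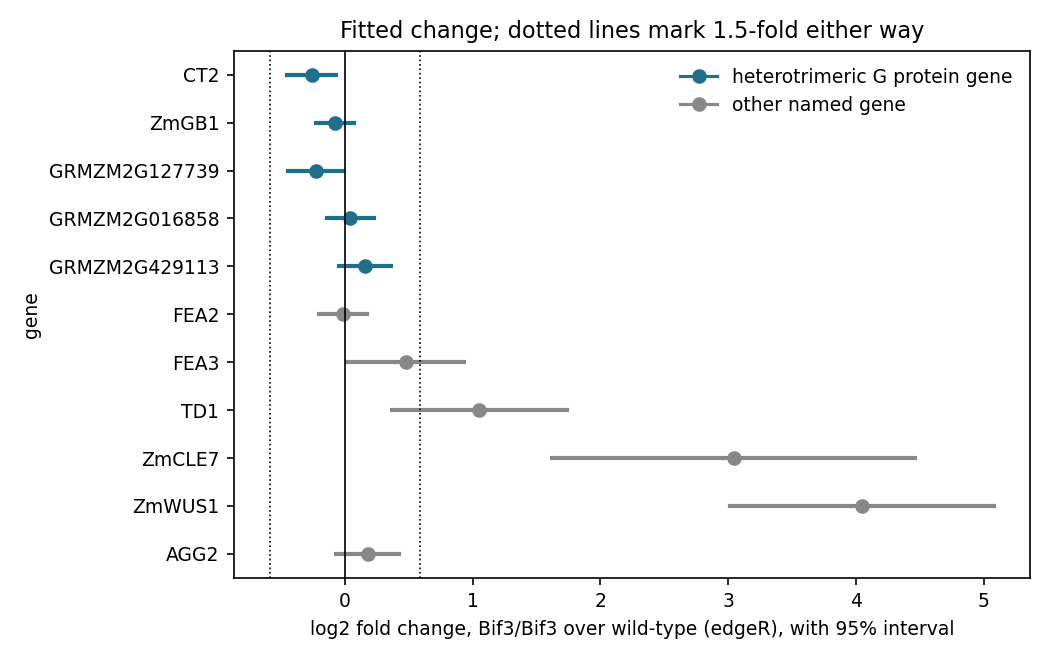
Log2 fold change of *Bif3/Bif3* over wild-type from edgeR (points) with 95% intervals (lines) for the 5 G protein genes (blue) and for *FEA2*, *FEA3*, *TD1*, *ZmCLE7*, *ZmWUS1* and *AGG2* (grey). The G protein intervals all lie between the dotted lines at 1.5-fold, while the intervals of *ZmCLE7* and *ZmWUS1* lie wholly above them.

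Over the 5 members the median log2 fold change was -0.08, with 2 above 0 and 3 below. Over the genes with a mean of at least 10 CPM the median was -0.06, and over all genes tested it was -0.01. The median absolute log2 fold change was 0.16 for the members and 0.13 for the genes with a mean of at least 10 CPM. Thus by these medians the members as a list lay close to the genes with a mean of at least 10 CPM. Taken singly, *CT2* and *GRMZM2G127739* had a larger absolute log2 fold change than 81.9% and 76.8% of those genes. For the other members these shares were between 17.2% and 59.9%. The coefficients of variation of the members ran from 1.99% to 10.2% in *Bif3/Bif3* and from 3.32% to 11.6% in wild-type. The medians of the genes with a mean of at least 10 CPM were 7.63% and 7.74%. *ZmGB1* had the low values. In wild-type, 73.2% of those genes varied less than *CT2* and 68.8% less than *GRMZM2G127739*.

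The ratio of 2 genes within a pool does not depend on how libraries are scaled, and was used to compare the members with each other. Reads of *GRMZM2G016858* per read of *CT2* were 1.58, 1.74, 1.62 and 1.74 in the *Bif3/Bif3* pools, against 1.36, 1.46 and 1.25 in wild-type, with no overlap. Reads of *GRMZM2G429113* per read of *CT2* were 0.601, 0.681, 0.523 and 0.655 in *Bif3/Bif3*, against 0.485, 0.517 and 0.387 in wild-type, again without overlap but with the nearest pools almost level. The mean ratios were 1.23 and 1.33 times those of wild-type. This was not particular to these genes, because 25.6% of the 14131 genes other than *CT2* with a mean of at least 10 CPM had a ratio to *CT2* that was higher in every *Bif3/Bif3* pool, and 0.432% had one that was lower.

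**Figure D3:**
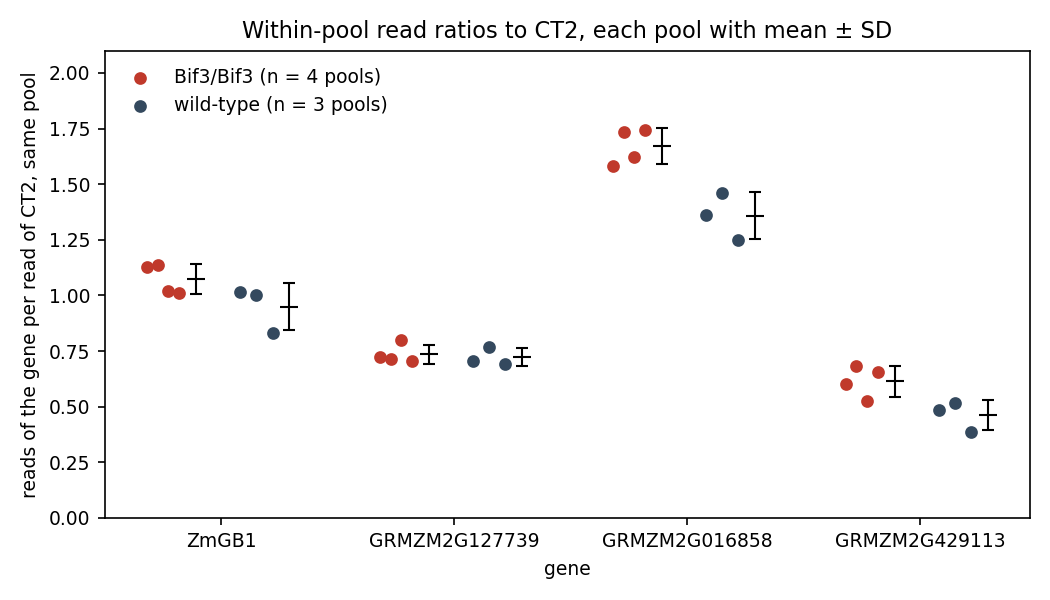
Reads of each of the other 4 G protein genes per read of *CT2* in the same pool, in *Bif3/Bif3* (red, n = 4) and wild-type (dark, n = 3), with mean and SD. The genotypes are apart for *GRMZM2G016858* and *GRMZM2G429113* and overlap for *ZmGB1* and *GRMZM2G127739*.

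The ratio of *GRMZM2G127739* to *CT2* was the most alike between genotypes, with 0.736 ± 0.043 (SD, n = 4) in *Bif3/Bif3* and 0.722 ± 0.041 (SD, n = 3) in wild-type. For *ZmGB1* over *CT2* it was 1.07 ± 0.067 and 0.950 ± 0.104, with overlap. Reads of *GRMZM2G429113* per read of *GRMZM2G016858* were 0.367 ± 0.031 (SD, n = 4) in *Bif3/Bif3* and 0.340 ± 0.026 (SD, n = 3) in wild-type, a difference of about the size of the spread of the pools. *GRMZM2G016858* over *GRMZM2G127739* was 2.28 ± 0.205 in *Bif3/Bif3* and 1.88 ± 0.067 in wild-type, without overlap. A ratio to *GRMZM2G127739* that was higher in every *Bif3/Bif3* pool was found for 11.2% of the 14131 other genes with a mean of at least 10 CPM. These ratios share genes and are given as a description.

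**Figure D4:**
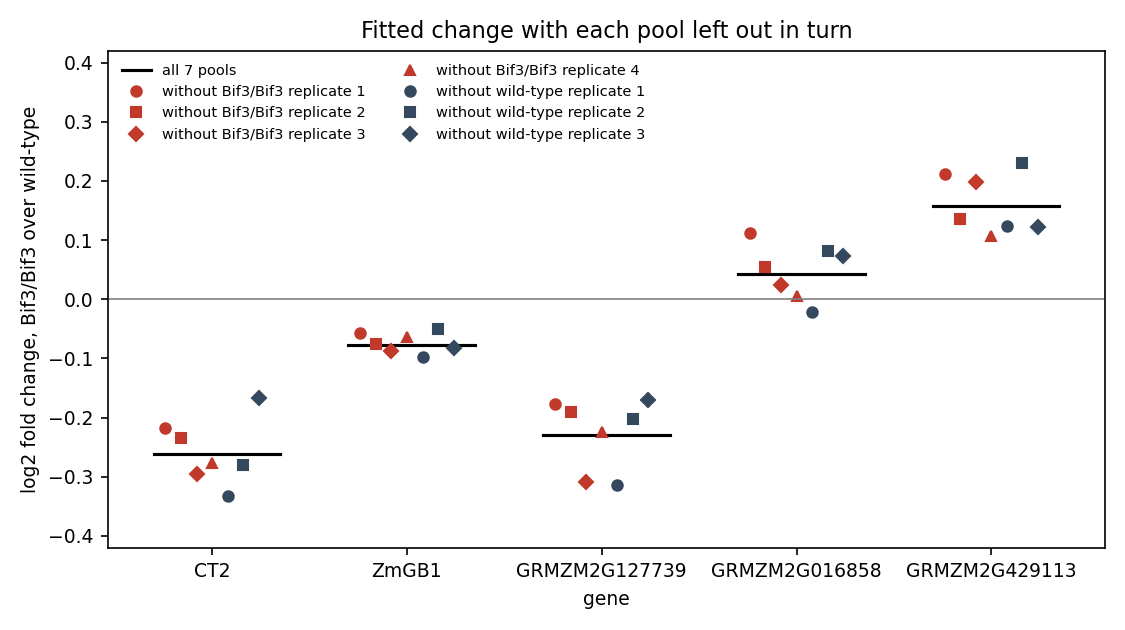
Log2 fold change of *Bif3/Bif3* over wild-type for each G protein gene with all 7 pools (black line) and with each pool left out in turn (red symbols, a *Bif3/Bif3* pool left out, and dark symbols, a wild-type pool left out). *CT2*, *ZmGB1* and *GRMZM2G127739* stay below 0 and *GRMZM2G429113* above it, whereas *GRMZM2G016858* crosses 0 without wild-type replicate 1.

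The pools of *Bif3/Bif3* differed in the strength of *ZmWUS1*, which had 4.31, 5.13, 3.82 and 12.8 CPM there, against 0.551, 0.324 and 0.320 CPM in wild-type. Replicate 4, the pool with the most *ZmWUS1*, was not an extreme pool for *CT2* or *GRMZM2G127739*. It was the highest *Bif3/Bif3* pool for *GRMZM2G016858* and *GRMZM2G429113* and the lowest for *ZmGB1*. Without this pool, the log2 fold changes of the 5 members, from *CT2* to *GRMZM2G429113* in the order above, were -0.28, -0.06, -0.22, 0.01 and 0.11. No relation to *ZmWUS1* was tested over 4 pools.

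Among the partners of CT2 in meristem size control, *FEA2*, the CLAVATA2-type receptor-like protein that signals through CT2, averaged 34.5 ± 2.77 CPM over 4 *Bif3/Bif3* pools and 34.9 ± 1.76 CPM over 3 wild-type pools (mean ± SD). Its log2 fold change was -0.02 (95% interval -0.20 to 0.17, adjusted p = 0.948 from edgeR), and the sign changed with library size alone as the scaling, without *Bif3/Bif3* replicate 1 or 2, and without wild-type replicate 2. *FEA3*, a receptor-like protein of a parallel pathway, had a log2 fold change of 0.48 (95% interval 0.02 to 0.93, adjusted p = 0.265 from the same test) and overlapping pools. Of the 5 partner genes, chosen with earlier results of these data known, 3 were past the threshold as higher and 0 as lower, against 3.39% and 0.598% of all genes tested. These were *ZmWUS1*, the ligand gene *ZmCLE7*, the likely maize *CLV3*, and *TD1*, the CLAVATA1-type receptor kinase gene, with log2 fold changes of 4.05, 3.05 and 1.05. The pools of *TD1* overlapped, with 14.4 to 42.9 CPM in *Bif3/Bif3* and 9.25 to 15.5 CPM in wild-type, and it had an adjusted p of 0.0991 and lost its call in 10 of 14 alternatives, among them the fit without *Bif3/Bif3* replicate 4, where its log2 fold change was 0.63. In that fit those of *ZmWUS1* and *ZmCLE7* were 3.48 and 2.02. *ZmCLE7* lost its call in 1 alternative, without wild-type replicate 3.

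The supplied names include *AGG2* (*GRMZM2G015578*), named like the Arabidopsis Gγ gene. Its *Bif3/Bif3* pools had 16.8, 13.9, 14.6 and 16.0 CPM, against 13.1, 12.2 and 15.3 CPM in wild-type. The genotypes overlapped, and the log2 fold change was 0.18 (standard error 0.114, 95% interval -0.07 to 0.43, adjusted p = 0.450 from edgeR). A further gene that bears the synonym *GB1*, *GRMZM2G062531*, had at most 1 count in any pool, below a detection limit of 3 counts.

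The genes with the profile nearest to each member over the 7 pools were taken by the same distance, among genes with a mean of at least 10 CPM. Their fold changes are close to that of the member through this choice, and are no separate result. For *CT2* they were *GRMZM2G101502*, listed as HEAT-like, and *GRMZM5G812270*, at distances of 0.015 and 0.022, with log2 fold changes of -0.26 and -0.24. For *ZmGB1* they were *GRMZM2G115156* and *GRMZM5G864166*, at 0.016 and 0.017. *GRMZM2G127739* was nearest to *GRMZM2G022310* and *GRMZM2G449779*, at 0.020 and 0.026. *GRMZM2G016858* was nearest to *GRMZM2G356198* and *GRMZM2G007229*, at 0.027 and 0.029, and *GRMZM2G429113* to *GRMZM2G063262* and *GRMZM2G070553*, at 0.037 and 0.040. No member was among the nearest genes of another. With 14131 genes to choose from over 7 pools, close profiles are found for any gene, and nothing is drawn from these names.

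The tissue label was checked on marker genes. *KN1*, a homeobox gene of meristems, had 486 to 617 CPM in *Bif3/Bif3* and 418 to 498 CPM in wild-type. The branching gene *RA3* had 59.3 to 120 CPM in *Bif3/Bif3* and 124 to 183 CPM in wild-type, and *RA1* had at least 6.32 CPM in every pool. The spikelet gene *BD1* differed between pools of 1 genotype, with 127, 80, 5 and 3 counts in *Bif3/Bif3* and 0, 50 and 5 in wild-type. The leaf gene *PEPC1* had no count in any pool, and the summed level of 3 leaf photosynthesis genes was 0.268 to 0.839 CPM in *Bif3/Bif3* and 0.10 to 1.15 CPM in wild-type. Of these, *SSU1* was highest in the pools with the most *BD1*. It had 36 and 29 counts in *Bif3/Bif3* replicates 1 and 2 and 62 in wild-type replicate 2, against 5 to 19 in the others. Whether these pools differed in stage or dissection was not tested. The inflorescence markers did not move in 1 direction. The log2 fold changes were -0.93 for *RA3* (adjusted p = 0.0487 from edgeR) and -0.50 for *RA1* (0.248). For *KN1* and *BD1* they were 0.23 (0.259) and 1.76 (0.465). Whether the make-up of the ears had a part in the small differences of *CT2* and *GRMZM2G127739* was not tested. Fewer cells that express a gene cannot be told apart from less transcript per cell.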

How the data were processed

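RNA-seq counts of 7 pools of ear primordia were used. As stated in the study's methods, the authors used Trimmomatic for trimming, HISAT for alignment to the B73 v3 genome and HTSeq-count for the reads of each gene. The submitters' processing notes name TopHat2 2.1.1 and Cuffdiff instead, and which of them made the table was not settled. The deposited values are raw counts, whole numbers without normalization. Libraries were made with a stranded kit, but the strand setting of the counting is not given in the sources used here, so antisense reads may be included.

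The 40650 genes with at least 2 counts over all pools were tested in R 4.3.3 with edgeR 4.0.16, with TMM scaling, the quasi-likelihood fit in the form of earlier versions and no covariate. Of the 110451 genes, 65090 had no count and could not be called. The standard error is the log2 fold change over the square root of its F statistic, and 95% intervals from the moderated degrees of freedom (prior 6.86). The members and lists were chosen with earlier results of these data known. The genes named are the 5 members, the partners *FEA2*, *FEA3*, *TD1*, *ZmCLE7* and *ZmWUS1*, the marker genes, and the 2 genes nearest to each member in profile. A list of G protein genes by description and levels per length could not be made, because the gene table (assembly NAM-5.0, 4 of the 5 members matched) holds neither descriptions nor transcript lengths. *AGG2* and the further *GB1* were picked by name after this was seen, but not for their values. Partners and markers whose names no source used here pairs with an identifier were left out. Sequences were not used here. The fits were tested on simulated data in which the changed genes moved much further than any member did. That test cannot speak on changes as small as those of the members. Alternatives were DESeq2 size factors in edgeR, library size alone, the fit of edgeR 4, DESeq2 1.42.0, edgeR's filter on low counts, no filter, leaving out each pool, the replicate number as a block, no limit on fold change, and a limit of 0.05 on the adjusted p. Pools are biological replicates by the study's methods, and 3 ears were combined in each, so the spread between single ears is not seen.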

Additional observations from a re-analysis of the deposited data

Results flagged for a closer look

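In *Bif3/Bif3*, replicate 4 stood apart from the other 3 pools in *ZmWUS1*, with 12.8 CPM, where its gap to the nearest pool took 0.854 of the range of the group. *GRMZM2G062531* had 0.0227 CPM in *Bif3/Bif3* replicate 1 and 0 in the other 3 pools, which is 1 count and under the detection limit. Both were past the critical value of Dixon's test for 4 pools. In *Bif3/Bif3* no pool of the 5 G protein genes was past it, nor one of *FEA2*, *FEA3*, *TD1*, *ZmCLE7* or *AGG2*. Replicate 4 was still far above the other *Bif3/Bif3* pools in *ZmCLE7*, with 17.6 CPM against 2.38 to 5.03 CPM. In *TD1* it had 42.9 CPM against 14.4 to 20.6 CPM. It was not the highest pool in *FEA2*, *FEA3* or *AGG2*. The 3 wild-type pools are too few for this measure and were not tested. Chance sets a pool apart by this measure in about 1 in 20 groups.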

How the results depend on the processing

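The number of G protein genes past the threshold was 0 in each of the 16 alternative settings and fits without a pool that were run. All but 1 of these ask for a change of more than 1.5-fold, which no member reached in any fit. They therefore cannot speak on smaller changes. The setting without this limit used the adjusted p of the reported fit, 0.143 for *CT2* from edgeR. Over the 14 that give a fold change of their own, the log2 fold change ranged from -0.33 to -0.17 for *CT2*, -0.10 to -0.04 for *ZmGB1*, -0.31 to -0.17 for *GRMZM2G127739*, -0.02 to 0.11 for *GRMZM2G016858* and 0.11 to 0.23 for *GRMZM2G429113*. The single change of sign was that of *GRMZM2G016858* without wild-type replicate 1 (WT replicate 1), with a log2 fold change of -0.022, and the cause was not tested. The adjusted p of *CT2* ranged from 0.0353 to 0.466, both from edgeR. It was under 0.1 with DESeq2, without wild-type replicate 1 and with the replicate number as a block (0.0353 from edgeR). No wild-type pool shares the number of *Bif3/Bif3* replicate 4. With the block, the fitted changes therefore rest on the pools numbered 1 to 3.

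Over all genes, 1380 were higher and 243 lower in *Bif3/Bif3*. An adjusted p under 0.05 left 891 higher and 137 lower, no limit on fold change gave 1785 higher and 670 lower, and the replicate block gave 1994 higher and 394 lower. With 1 pool left out, the numbers ran from 687 to 1817 higher and from 114 to 327 lower. The cause of the spread was not tested. Same-numbered pools deviated together for numbers 2 and 3 (correlations of 0.494 and 0.266) but not for number 1 (-0.009). Some pools of unlike number did so to a like degree. *Bif3/Bif3* replicate 4 with wild-type replicate 3 gave 0.314, and *Bif3/Bif3* replicate 1 with wild-type replicate 2 gave 0.252. Other unlike-numbered pairs went down to -0.389. The labels give the numbers no meaning, so the block is no paired design. *Bif3/Bif3* replicate 4 has no wild-type pool of its number, so the 1994 and 394 genes of the block rest on the pools numbered 1 to 3. With mean CPM unscaled by TMM, each member moved by less than its SD in either genotype.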
